A study of Rattus norvegicus with 18 samples.

Results

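The genes described here are 8 genes of sulfur amino acid metabolism in the rat cerebral cortex, namely Cdo1, Csad, Slc6a6, Cth, Cbs, Got1, Mat2a and Ahcy. They were found as the rows of the deposited count table that carry these symbols, 8 of 30735 genes, and all 8 passed the filter on low counts that kept 18444 genes. The members were chosen by their place in the pathway and on their measured levels and fold changes in these same libraries, so their values are given as a description and without p-values. An adjusted p under 0.05 from the fit over all genes is termed a call. For the 8 genes calls are counted as a description and lend no support to their differences, and results are tested only for other genes of the same metabolism.

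Cortex was taken from adult Sprague Dawley rats, with 6 rats in each of 3 groups and 1 library per rat. The SAH 1d and SAH 7d groups had subarachnoid hemorrhage, made by perforating a cerebral artery from inside with a filament, and were sampled 1 and 7 days later. The sham rats had the surgery without the perforation, and the day of their sampling was not given in the sources used here. The labels name no transgene or drug treatment in any group. The study's methods describe the cortex of the operated side. The extraction protocol deposited with the libraries names the cortex of both sides, and of mice, which goes against the rat gene IDs. Cortex is a mixture of cell types. Libraries are named by group and by the number in their column names.

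Sulfur amino acid metabolism starts with methionine, which the methionine adenosyltransferase subunit Mat2a turns into the methyl donor S-adenosylmethionine. The S-adenosylhomocysteine left after methyl transfer is split by Ahcy into homocysteine and adenosine. Cbs joins homocysteine with serine to cystathionine, and Cth cleaves cystathionine to cysteine, a route known as transsulfuration. Cysteine is then built into protein and glutathione, or is oxidized by Cdo1 to cysteine sulfinate. Csad decarboxylates cysteine sulfinate to hypotaurine, the precursor of taurine, while the aspartate aminotransferase Got1 can transaminate cysteine and its sulfinate. Slc6a6 carries taurine into cells. In brain, taurine is an abundant organic osmolyte, and Cbs is found mainly in astrocytes.

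Levels are given as CPM, counts per 1000000 after scaling the library totals by TMM (a scaling that takes most genes as equal between libraries), or as the authors' FPKM where genes are compared with each other, since FPKM is per length. Total counts per library ranged from 27270026 to 38271014. SAH 7d-5 and SAH 1d-3 stood apart from their groups, and the values that depend most on them are given with and without them. The neuron markers (6 of 6 genes measured) summed to 5380 to 8780 CPM in sham, 4340 to 5390 in SAH 1d and 2160 to 7930 in SAH 7d, with SAH 7d-5 lowest. The monocyte and macrophage markers (5 of 6 measured) summed to 50.3 to 91.8 CPM in sham, 94.3 to 621 in SAH 1d with SAH 1d-3 highest, and 92.1 to 8220 in SAH 7d with SAH 7d-5 highest. The choroid plexus markers (6 of 6 measured) reached 750 and 1090 CPM in SAH 1d-4 and SAH 1d-6 and at most 69.7 in any sham library. Without these SAH 1d libraries, a choice made after seeing the data, Cdo1, Cth, Got1 and Ahcy were called in SAH 1d versus sham, and Slc6a6 and Cbs were not. In that setting 3810 of all genes tested were called. Among the sham libraries, sham-1 also stood apart, lowest in neuron markers and highest in astrocyte (3810 CPM), oligodendrocyte (18600), microglia (353) and endothelial cell markers (187). It was not highest in the other lists. Without sham-1, Cdo1, Slc6a6, Cth and Got1 were called in SAH 1d versus sham, with 4851 of all genes, and Cbs and Ahcy were not. No measured marker was at 0 in all libraries. In bulk tissue, fewer cells of a type and less RNA per cell cannot be told apart.

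At 1 day after SAH, Cdo1 and Cth were higher in all 6 libraries than in any sham library, by about 2-fold. Slc6a6 and Ahcy were higher in 5 of 6 libraries, Cbs and Got1 were lower, and Csad and Mat2a spread to both sides of the sham range. At 7 days, all 8 genes overlapped with sham, from which 1.23% of the genes tested were separate. In SAH 1d versus sham, 25.4% of the 18444 genes tested had an adjusted p under 0.05, and 6 of the 8 genes were among them, 4 higher and 2 lower. The share of genes with no overlap between these groups was 13.3%, and it held 2 of the 8 (Cdo1 and Cth). After SAH 1d-3 was left out, 28.5% of all genes and 5 of the 8 were called, all but Ahcy of the 6. Since these values chose the genes, nothing is read from those counts. The median log2 fold change was 0.32 over the 8 genes and 0.01 over all genes tested.

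**Figure D1:**
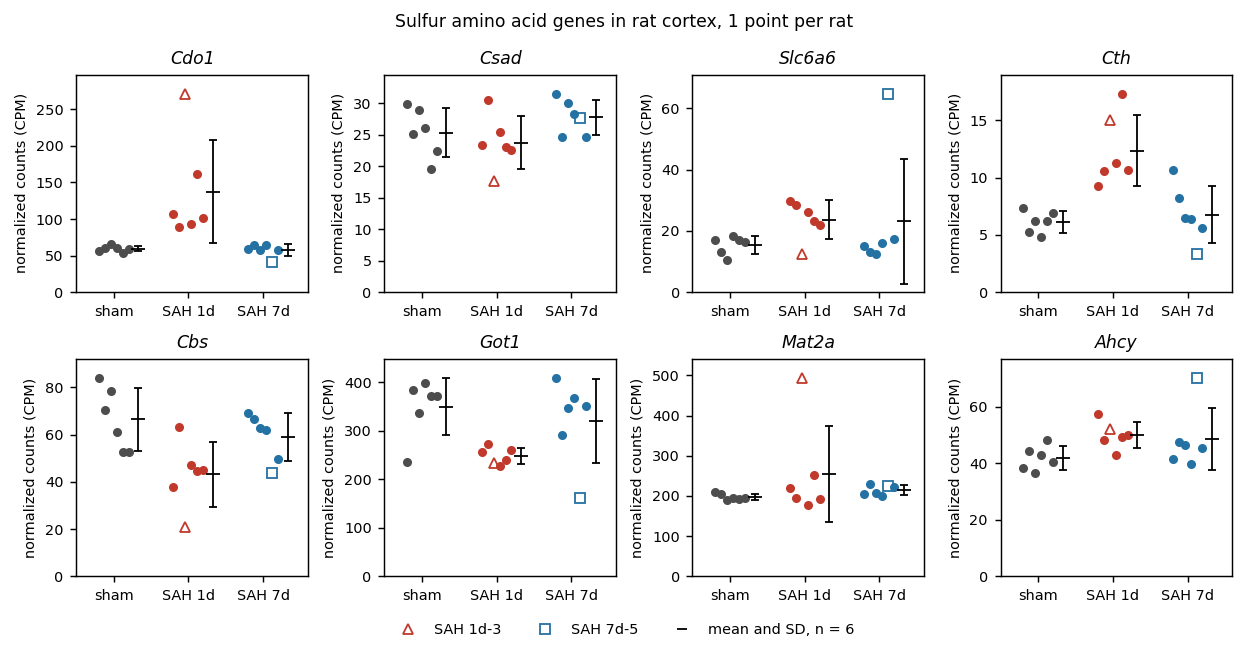
Normalized counts (CPM, vertical axes starting at 0) of the 8 genes in sham, SAH 1d and SAH 7d cortex, 1 point per rat, with the mean and SD of 6 libraries beside each group. Cdo1 and Cth separate SAH 1d from sham in every library, whereas SAH 1d-3 (triangle) and SAH 7d-5 (square) set the top of Mat2a at SAH 1d and of Slc6a6 at SAH 7d.

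Cdo1 (ENSRNOG00000000158), the dioxygenase that commits cysteine to sulfinate, had a lowest, median and highest level of 54.3, 59.9 and 65.4 CPM in sham. The values were 89.5, 104 and 270.5 CPM in SAH 1d, and 41.6, 58.3 and 64.3 CPM in SAH 7d. Every SAH 1d library was thus above every sham and every SAH 7d library. SAH 7d-5 at 41.6 CPM was below all sham libraries, and the other 5 SAH 7d libraries, at 57.1 to 64.3 CPM, lay within the sham range. The means were 59.5 ± 3.82 CPM in sham and 137 ± 70.3 CPM in SAH 1d (SD, n = 6 each). The large SD of SAH 1d came with 270.5 CPM in SAH 1d-3 and 161.2 CPM in SAH 1d-5. The log2 fold change of SAH 1d versus sham was 1.21 ± 0.25 (SE), a 2.31-fold difference. Without SAH 1d-3 it was 0.89 ± 0.13, a 1.86-fold difference, and the 5 remaining libraries lay between 89.5 and 161.2 CPM.

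Csad (ENSRNOG00000011573), the next enzyme of the route to taurine, differed little between the groups. Its lowest, median and highest levels were 19.5, 25.5 and 29.9 CPM in sham, 17.6, 23.2 and 30.5 CPM in SAH 1d, and 24.6, 27.9 and 31.4 CPM in SAH 7d. The ranges overlapped broadly, and SAH 1d-3 was the lowest of its group. The log2 fold change of SAH 1d versus sham was -0.09 ± 0.13, and on the FPKM scale the mean was slightly higher in SAH 1d (11.8 ± 2.31) than in sham (11.6 ± 1.5). SAH 7d stood at 0.14 ± 0.11 above sham on the log2 scale.

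The FPKM ratio of Cdo1 to Csad within a library was higher in SAH 1d, where Cdo1 was higher and Csad differed little from sham. It had a lowest, median and highest value of 2.54, 3.18 and 3.72 in sham, 3.92, 6.07 and 20.6 in SAH 1d, and 2.01, 2.79 and 3.46 in SAH 7d. All SAH 1d libraries were above all others, the highest being 20.6 in SAH 1d-3, followed by 9.37 in SAH 1d-5. SAH 1d-3 had both the highest Cdo1 (176.0 FPKM) and the lowest Csad (8.56 FPKM) of its group.

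Slc6a6 (ENSRNOG00000009019), the taurine carrier, had a lowest, median and highest level of 10.6, 16.7 and 18.4 CPM in sham, 12.6, 24.8 and 29.8 CPM in SAH 1d, and 12.6, 15.6 and 64.6 CPM in SAH 7d. In SAH 1d, 5 of 6 libraries lay above all sham libraries, between 21.8 and 29.8 CPM. The exception was SAH 1d-3 at 12.6 CPM, the library in which Cdo1 was highest. SAH 1d versus sham gave a log2 fold change of 0.62 ± 0.19, and 0.75 ± 0.14 without SAH 1d-3. Slc6a6 was called in 14 of 22 other settings for this comparison, and the call was lost when sham-2, sham-3, sham-6, SAH 1d-1, SAH 1d-2 or SAH 1d-4 was left out.

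At 7 days, the mean of Slc6a6 was 23.2 ± 20.4 CPM (SD, n = 6), and 14.9 ± 2.02 CPM without SAH 7d-5, which alone was at 64.6 CPM. The log2 fold change of SAH 7d versus sham was 0.59 ± 0.39 with that library and -0.04 ± 0.14 without it. Of SAH 7d versus SAH 1d it was -0.02 ± 0.41 with all libraries and -0.81 ± 0.12 after leaving out SAH 7d-5 and SAH 1d-3. SAH 7d-5 was also the library with the highest summed monocyte and macrophage markers (8220 CPM, the others at most 251), microglia markers (2930 CPM, the others at most 838) and meningeal fibroblast markers (4190 CPM, the others at most 433) of its group. Their part in the Slc6a6 level was not tested.

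The promoter of Slc6a6 is shown because it is 1 of 2 among the 7 promoters available with the letters searched for as an antioxidant response element core. It is the RefSeq sequence from 250 bases before to 50 after the start, on GRCr8 chr4:125752252-125752551, plus strand, 5′ to 3′. Capitals mark TGACNNNGC (read here on the minus strand, as GCGAGGTCA), the GC box GGGCGG in either orientation and, nearer the start, the TATA box TATAAA.
Slc6a6: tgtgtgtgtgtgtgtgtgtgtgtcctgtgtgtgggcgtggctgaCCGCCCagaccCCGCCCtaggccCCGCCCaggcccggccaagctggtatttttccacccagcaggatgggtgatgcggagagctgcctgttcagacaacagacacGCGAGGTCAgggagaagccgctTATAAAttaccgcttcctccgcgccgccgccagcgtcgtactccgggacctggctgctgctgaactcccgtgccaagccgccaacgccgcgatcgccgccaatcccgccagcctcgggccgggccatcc

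Cth (ENSRNOG00000010658), which releases cysteine from cystathionine, had the lowest mean FPKM of the 8 in every group. Its lowest, median and highest levels were 4.82, 6.22 and 7.33 CPM in sham, 9.26, 11 and 17.3 CPM in SAH 1d, and 3.30, 6.43 and 10.6 CPM in SAH 7d. SAH 1d did not overlap with sham, and SAH 7d spread to both sides of sham, with 2 libraries above and 1 below its range. The means were 6.13 ± 0.95 CPM in sham, 12.4 ± 3.09 CPM in SAH 1d and 6.77 ± 2.47 CPM in SAH 7d (SD, n = 6 each). The log2 fold change of SAH 1d versus sham was 1.01 ± 0.17, or 0.94 ± 0.16 without SAH 1d-3. The highest library was SAH 1d-5 at 17.3 CPM, and SAH 1d-3 was at 15.0 CPM.

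Cbs (ENSRNOG00000029528), the enzyme one step upstream of Cth, lay on the other side of sham. Its lowest, median and highest levels were 52.4, 65.7 and 83.8 CPM in sham, 21.1, 44.8 and 63.3 CPM in SAH 1d, and 43.9, 62.3 and 69.1 CPM in SAH 7d. In SAH 1d, 5 of 6 libraries were below all sham libraries, and SAH 1d-3 was the lowest at 21.1 CPM. Against sham, SAH 1d stood at a log2 fold change of -0.63 ± 0.21, and -0.48 ± 0.15 without SAH 1d-3. The call was kept in 9 of 22 other settings, and it was lost when sham-1, sham-2, sham-3, sham-4, SAH 1d-1, SAH 1d-4, SAH 1d-5 or SAH 1d-6 was left out. It was also lost on the FPKM scale, where the median of all genes shifted by 0.10 (log2) towards SAH 1d against the main fit, and where the mean of Cbs was still lower in SAH 1d (17.5 ± 5.87 FPKM) than in sham (24.8 ± 4.43 FPKM). The astrocyte markers (6 of 6 measured) summed to 2080 to 3810 CPM in sham, 4520 to 5690 in SAH 1d and 2550 to 5510 in SAH 7d, where the higher sum was that of Gfap (285 to 540 CPM in sham and 2240 to 3770 in SAH 1d). Without Gfap the list summed to 1770 to 3270 CPM in sham and 1640 to 2460 in SAH 1d. In SAH 1d versus sham Gfap was called higher, Aldh1l1 lower and the other 4 not, with a median log2 fold change of -0.17. Their part in the Cbs level was not tested.

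The FPKM ratio of Cth to Cbs was higher in SAH 1d, where Cth was higher and Cbs lower than in sham. The ratio restates those levels, on which the genes were chosen, and is a description only. Its lowest, median and highest values were 0.102, 0.114 and 0.182 in sham, 0.229, 0.333 and 0.981 in SAH 1d, and 0.102, 0.149 and 0.211 in SAH 7d. In SAH 1d-3 the FPKM levels of Cth (8.18) and Cbs (8.34) were nearly equal.

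**Figure D2:**
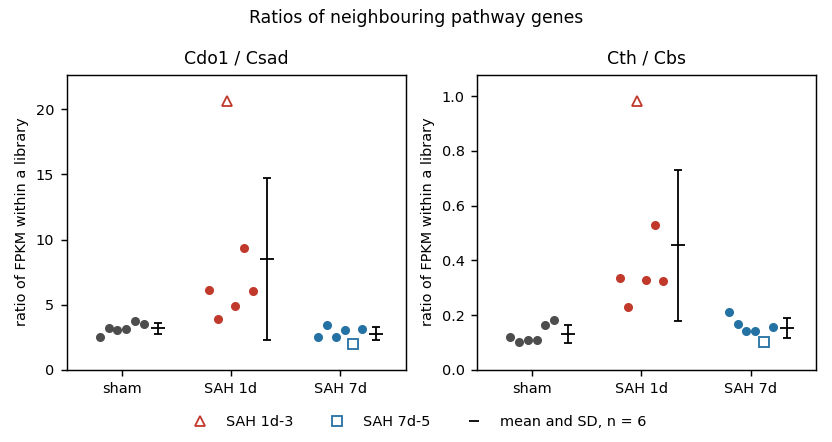
Ratios of FPKM within each library for Cdo1 over Csad and for Cth over Cbs (vertical axes starting at 0), 1 point per rat in sham, SAH 1d and SAH 7d, with the mean and SD of 6 libraries. The 6 SAH 1d libraries lie above all sham and SAH 7d libraries in both panels, at 3.92 to 20.6 and at 0.229 to 0.981. Both ratios restate the levels of genes chosen on those levels.

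The promoters of Cth and Cbs are shown because the levels of these consecutive enzymes differed from sham in opposite directions at SAH 1d. Cth is at chr2:249661017-249661316 and Cbs at chr20:9733876-9734175 (GRCr8, RefSeq), both printed 5′ to 3′ along the minus strand, and capitals mark the GC box. Neither window held the amino acid response element TGATGNAA, the antioxidant response element core TGACNNNGC or the TATA box, on either strand. Cth had 1 GC box and Cbs had 3.
Cth: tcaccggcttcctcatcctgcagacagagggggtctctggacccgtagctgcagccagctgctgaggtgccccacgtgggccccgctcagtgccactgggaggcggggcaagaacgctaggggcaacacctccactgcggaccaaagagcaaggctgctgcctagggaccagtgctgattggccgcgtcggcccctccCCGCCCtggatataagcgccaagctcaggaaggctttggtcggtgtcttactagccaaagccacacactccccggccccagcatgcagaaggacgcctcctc
Cbs: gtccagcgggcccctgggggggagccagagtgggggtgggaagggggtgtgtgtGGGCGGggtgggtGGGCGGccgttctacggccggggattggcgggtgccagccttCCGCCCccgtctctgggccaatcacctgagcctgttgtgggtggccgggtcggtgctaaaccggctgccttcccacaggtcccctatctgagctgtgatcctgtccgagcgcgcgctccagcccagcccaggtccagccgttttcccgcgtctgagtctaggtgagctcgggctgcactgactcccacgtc

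Got1 (ENSRNOG00000016356), the cytosolic aspartate aminotransferase, was the most abundant of the 8 by FPKM in every group. Its lowest, median and highest levels were 235.7, 371.6 and 397.5 CPM in sham, 227.3, 247.9 and 271.9 CPM in SAH 1d, and 161.2, 347.9 and 407.9 CPM in SAH 7d. The SAH 1d libraries lay close together and below 5 of 6 sham libraries, which were at 337.4 CPM or more. The 1 low sham library, sham-1, was within the range of SAH 1d. In SAH 1d versus sham the log2 fold change was -0.50 ± 0.11. Got1 was called in 18 of 22 other settings, and the call was lost on the FPKM scale and with all 18 libraries in 1 fit. All 6 neuron markers were called lower in SAH 1d versus sham, and among the sham libraries the summed neuron markers were lowest in sham-1, the next being at 7200 CPM. Among the SAH 7d libraries both Got1 and the neuron markers were lowest in SAH 7d-5. The part of neuron content in the Got1 level was not tested.

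The promoter of Got1 is shown because it is the only 1 of the 7 available that held the amino acid response element letters, as TTGCATCA on the minus strand with its first base at -167 from the start. It also held TGACNNNGC on the minus strand, as GCTCGGTCA with its first base at -44, and 2 GC boxes, all in capitals. It lies at chr1:252329822-252330121 (GRCr8, RefSeq), printed 5′ to 3′ along the minus strand.
Got1: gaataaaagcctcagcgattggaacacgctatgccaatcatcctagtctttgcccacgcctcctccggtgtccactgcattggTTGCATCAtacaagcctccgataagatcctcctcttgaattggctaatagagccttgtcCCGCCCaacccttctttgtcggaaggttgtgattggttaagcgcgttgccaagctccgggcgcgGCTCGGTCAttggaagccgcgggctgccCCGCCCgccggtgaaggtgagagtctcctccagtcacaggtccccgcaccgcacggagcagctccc

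Promoter sequences were matched for 7 of the 8 genes, all but Cdo1. TGATGNAA was found in 1 of the 7 and in 3.98% of 33469 promoters of the same length, searched on both strands. TGACNNNGC was found in 2 of the 7 (Slc6a6 and Got1) and in 12.1% of all promoters, TATAAA in 2 (Slc6a6 and Mat2a) and 14.2%, and GGGCGG in 7 and 33.1%. The last pair of motifs was added after the values were seen. The GC content of the 7 promoters was 55.3% to 75%, against a median of 51.7% for all promoters. Such matches describe the letters in these windows only.

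Mat2a (ENSRNOG00000013520), which makes S-adenosylmethionine, had lowest, median and highest levels of 188.9, 195.4 and 208.9 CPM in sham, 178.5, 206.5 and 492.6 CPM in SAH 1d, and 199.9, 214.2 and 228.9 CPM in SAH 7d. The 492.6 CPM of SAH 1d-3 stood alone, since the other 5 SAH 1d libraries lay between 178.5 and 253.0 CPM and around the sham range. For SAH 1d versus sham the log2 fold change was 0.37 ± 0.22 with SAH 1d-3 and 0.07 ± 0.08 without it. In sham the gene varied little, with a mean of 197.7 ± 7.97 CPM (SD, n = 6).

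Ahcy (ENSRNOG00000017777), which removes S-adenosylhomocysteine, had lowest, median and highest levels of 36.5, 41.8 and 48.3 CPM in sham, 42.9, 49.7 and 57.4 CPM in SAH 1d, and 39.9, 46.0 and 70.1 CPM in SAH 7d. In SAH 1d, 5 of 6 libraries were above all sham libraries, by a small margin. Ahcy had a log2 fold change of 0.26 ± 0.09, or 0.25 ± 0.09 without SAH 1d-3, where the call was lost. The call was kept in 8 of 22 other settings, and with 1 library left out it was kept for sham-5 and SAH 1d-4 only. The FPKM ratio of Mat2a to Ahcy overlapped between the groups, with medians of 2.97 in sham, 2.57 in SAH 1d and 3.05 in SAH 7d, and SAH 1d-3 apart at 5.98.

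Compared per length, the order of the genes in sham was Got1 (163.5 ± 31.5 FPKM), Mat2a (56.1 ± 2.46), Cdo1 (36.5 ± 2.48), Cbs (24.8 ± 4.43), Ahcy (19.0 ± 2.52), Csad (11.6 ± 1.5), Slc6a6 (5.91 ± 1.15) and Cth (3.13 ± 0.43), each as mean FPKM ± SD of 6 libraries. Among neighbours in this order, only Cbs and Ahcy overlapped. In SAH 1d, Cdo1 took the second place with 90.6 ± 44.8 FPKM, ahead of Mat2a with 78.4 ± 35.7, and Ahcy with 24.5 ± 2.51 came ahead of Cbs with 17.5 ± 5.87. Every pair of neighbours overlapped in SAH 1d apart from Mat2a and Ahcy. Without SAH 1d-3, Cdo1 was at 73.5 ± 17.8 and Mat2a at 64.1 ± 8.30 FPKM, and Got1, at 112.8 FPKM or more, no longer overlapped with Cdo1. In SAH 7d the order was that of sham, with Cbs at 22.8 ± 3.87 and Ahcy at 22.7 ± 5.43 FPKM. The pairs that overlapped there were Cbs with Ahcy, Csad with Slc6a6 and Slc6a6 with Cth. Slc6a6 was at 9.29 ± 8.44 FPKM with SAH 7d-5 and at 5.86 ± 0.72 without it, and Csad and Slc6a6 then no longer overlapped. The means of Cbs and Ahcy were 23.9 and 20.6 FPKM without that library.

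**Figure D3:**
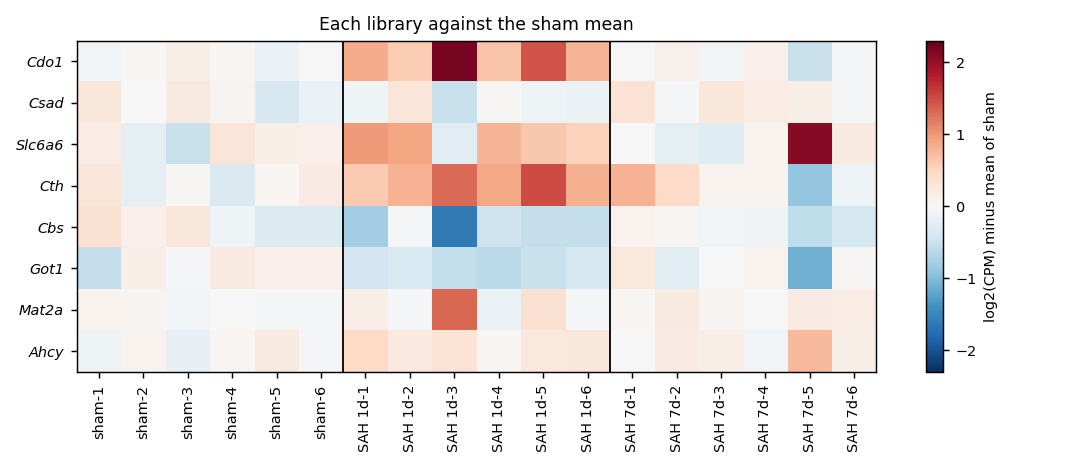
Difference of log2(CPM) from the sham mean for each of the 8 genes (rows) in each of the 18 libraries (columns), red higher and blue lower, with black lines between sham, SAH 1d and SAH 7d. The Cdo1 and Cth rows are red in all 6 SAH 1d libraries. Among the darkest cells are Cdo1 in SAH 1d-3 (270.5 CPM), Slc6a6 in SAH 7d-5 (64.6 CPM) and Cbs in SAH 1d-3 (21.1 CPM).

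The 18 libraries did not contribute evenly to the extremes. SAH 7d-5 was the highest or lowest of its group for 6 of the 8 genes, highest for Slc6a6 and Ahcy and lowest for Cdo1, Cth, Cbs and Got1. SAH 1d-3 was highest for Cdo1 and Mat2a and lowest for Csad, Slc6a6 and Cbs. Of the sham libraries, sham-1 was highest for Csad, Cth, Cbs and Mat2a and lowest for Got1.

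In SAH 7d versus sham, 0.0% of the 18444 genes tested had an adjusted p under 0.05 with edgeR, and none of the 8 genes was among them. At an unadjusted p under 0.05 there were 2842 genes, again none of the 8, and DESeq2 called 459 genes, none of the 8, leaving Slc6a6 without an adjusted p. The log2 fold changes of Cdo1, Cth, Cbs, Got1, Mat2a and Ahcy were -0.05 ± 0.10, 0.15 ± 0.23, -0.17 ± 0.15, -0.12 ± 0.20, 0.12 ± 0.06 and 0.22 ± 0.13 (SE). Without SAH 7d-5 the values were 0.03 ± 0.06, 0.29 ± 0.17, -0.09 ± 0.13, 0.02 ± 0.12, 0.11 ± 0.06 and 0.09 ± 0.08 in the same order, so Cdo1 and Got1 changed sign within their errors.

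In SAH 7d versus SAH 1d, 1.37% of the genes tested had an adjusted p under 0.05, and Cdo1 was the 1 of the 8 among them. Cdo1 differed by a log2 fold change of -1.27 ± 0.26, or -0.88 ± 0.14 after leaving out SAH 7d-5 and SAH 1d-3, and its groups did not overlap. The share of genes with no overlap between these groups was 3.05%. Cth stood at -0.87 ± 0.25 with 5 of 6 SAH 7d libraries below all SAH 1d libraries, Cbs at 0.45 ± 0.21 and Got1 at 0.37 ± 0.17, and these 3 were at -0.67 ± 0.20, 0.38 ± 0.13 and 0.48 ± 0.09 with both libraries left out. After leaving out SAH 7d-5 and SAH 1d-3, 13.6% of all genes and 4 of the 8 were called, namely Cdo1, Cth and Slc6a6 lower and Got1 higher in SAH 7d. Leaving out SAH 7d-5 alone gave the same 4, with 1545 of all genes called. The call of Cdo1 was lost when any 1 of SAH 1d-1, SAH 1d-5, SAH 7d-1, SAH 7d-2, SAH 7d-3, SAH 7d-4 or SAH 7d-6 was left out. Both comparisons with SAH 1d share its libraries, so their values are not independent of each other.

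**Figure D4:**
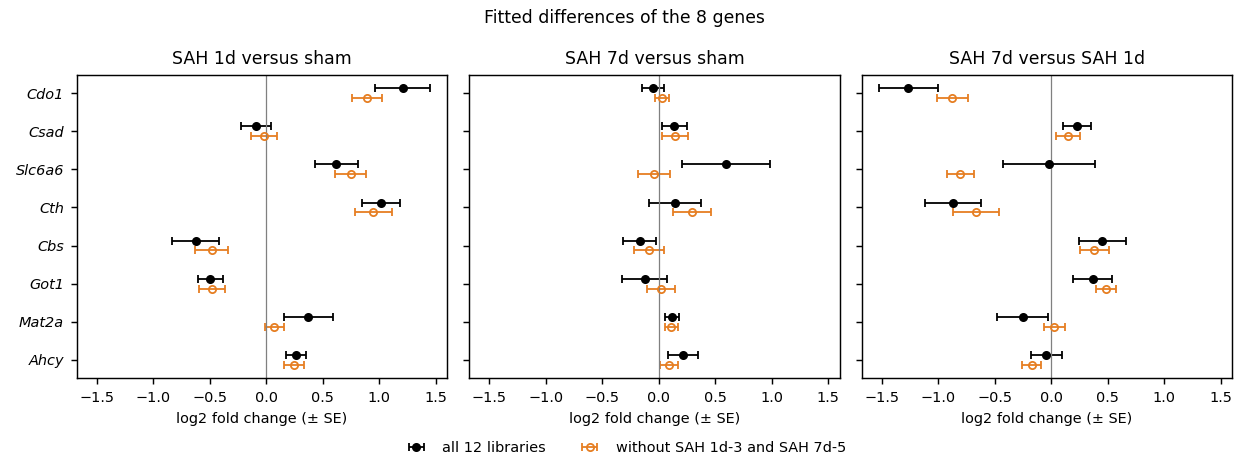
Fitted log2 fold change with its SE (horizontal axes) of the 8 genes in the 3 comparisons, from all 12 libraries (black) and after leaving out SAH 7d-5 and SAH 1d-3 (orange). Leaving out these libraries moves Mat2a from 0.37 to 0.07 in SAH 1d versus sham and Slc6a6 from -0.02 to -0.81 in SAH 7d versus SAH 1d.

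By the root mean square difference of centred log2 CPM over the 18 libraries, the genes most like Cdo1 were Snrpa1 (0.25), Trim16 (0.27) and Ncan (0.27), where Cdo1 itself varied by 0.63 about its mean. For Cth, which varied by 0.58, they were Spry4 (0.31), Yars (0.33) and Coq10b (0.34). For Cbs, which varied by 0.45, Bcan (0.16) and Plxnb1 (0.16) were among the most alike. These libraries share groups and depth, and genes without a given name were left out of the search.

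Around the 8 genes, 54 other genes of sulfur amino acid metabolism were listed by function, not by how they moved. Earlier results of these data were known when the list was made, so it was not blind to them. Of these, 51 were matched in the table and 48 passed the filter on low counts. In SAH 1d versus sham, 11 of the 48 had an adjusted p under 0.05 (edgeR quasi-likelihood test with Benjamini-Hochberg adjustment), 8 higher and 3 lower, against 14.9% and 10.5% of all genes tested. The median log2 fold change was -0.02 over the 48 genes and 0.01 over all genes tested. The genes called were in the methionine cycle list (1 higher and 2 lower of 7, the Ahcy-like Ahcyl1 among the lower). Others were in glutathione synthesis and breakdown (3 higher and 1 lower of 11) and among the carriers (4 higher and none lower of 11). None was called among 9 genes of methionine salvage and polyamines, 8 of cysteine transamination and desulfuration, and 2 of the taurine branch (edgeR gave 2, 0 and 0 at an unadjusted p under 0.05, and DESeq2 called 2, 0 and 0).

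Of the carriers, Slc1a5, which carries neutral amino acids, rose from 3.31 ± 0.50 CPM in sham to 11.2 ± 7.51 CPM in SAH 1d (SD, n = 6 each). Its log2 fold change was 1.76 ± 0.32 (edgeR adjusted p = 0.00215) and 1.30 without SAH 1d-3, and all SAH 1d libraries were above all sham libraries. Slc3a2, the heavy chain shared by the cystine and large neutral amino acid exchangers, rose from 147.9 ± 18.4 to 254.5 ± 49.4 CPM, a log2 fold change of 0.79 ± 0.13 (edgeR adjusted p = 0.00115). Its light chain Slc7a5, a methionine carrier, rose from 72.3 ± 4.35 to 108.6 ± 16.4 CPM, by 0.59 ± 0.10 on the log2 scale (edgeR adjusted p = 0.00121). The groups did not overlap for any of these 3 genes. Slc7a11, the light chain that imports cystine, stood at 0.39 ± 0.22 (edgeR adjusted p = 0.203).

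Chac1, which cleaves glutathione, rose from 10.6 ± 2.01 CPM in sham to 28.9 ± 5.88 CPM in SAH 1d, a log2 fold change of 1.45 ± 0.16 (edgeR adjusted p = 8.89e-05). The lowest SAH 1d library was at 19.7 CPM and the highest sham library at 12.6 CPM. Ggt7, of the gamma-glutamyltransferase family, fell by 0.38 on the log2 scale (edgeR adjusted p = 0.0308, 0.00488 to 0.231 over other settings), with the call lost in 12 of 22 of them, among these the ones without sham-2, sham-3, sham-4, sham-5, sham-6, SAH 1d-1 or SAH 1d-4.

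In the methionine cycle list, Mat2b, the regulatory partner of Mat2a, fell from 252.0 ± 42.4 to 174.1 ± 19.3 CPM, by 0.53 on the log2 scale (edgeR adjusted p = 0.00652). Ahcyl1, in that list as an Ahcy-like protein, fell by 0.28 (edgeR adjusted p = 0.042, 0.0177 to 0.204 over other settings). The call was lost in 16 of 22 of them, and kept with 1 library left out for sham-5, sham-6 and SAH 1d-3 only.

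**Figure D5:**
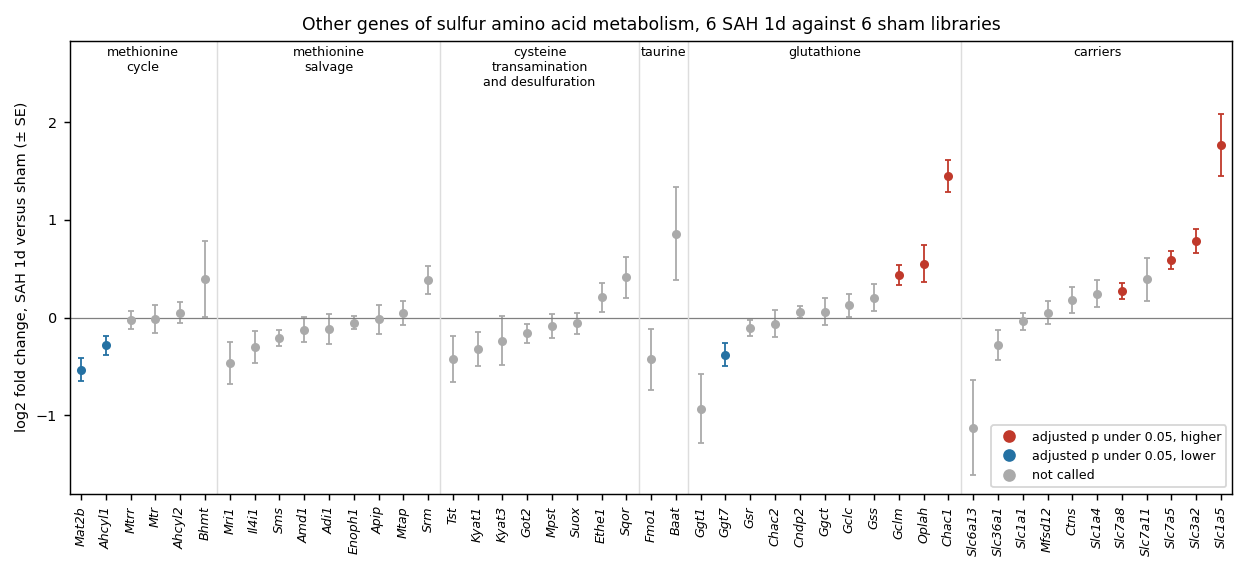
Log2 fold change of SAH 1d versus sham with its SE (vertical axis) for 47 other genes of sulfur amino acid metabolism in 6 functional lists, red called higher, blue called lower and grey not called at an adjusted p under 0.05. Slc1a5 (1.76) and Chac1 (1.45) stand highest of those plotted, and no gene of the salvage, transamination or taurine lists is called.

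At 7 days, none of the 48 genes was called against sham by edgeR or by DESeq2, with 6 at an unadjusted p under 0.05. In SAH 7d versus SAH 1d, Chac1 and Slc7a5 were lower, 2 of 48 against 1.08% of all genes tested. Chac1 fell from 28.9 ± 5.88 to 9.81 ± 1.84 CPM, a log2 fold change of -1.56 ± 0.17 (edgeR adjusted p = 0.00098), and stayed called in 23 of 23 other settings. Slc7a5 fell from 108.6 ± 16.4 to 76.1 ± 6.54 CPM, a log2 fold change of -0.52 ± 0.11 (edgeR adjusted p = 0.0363, 0.000878 to 0.165 over other settings), with the call lost in 12 of 23 of them. With 1 library left out, the call of Slc7a5 was kept for SAH 1d-3, SAH 1d-4 and SAH 7d-5 only. In both genes all SAH 7d libraries were below all SAH 1d libraries.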

How the data were processed

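Cortex RNA of 18 rats was sequenced in 18 libraries, 6 per group. The authors removed adapters and low-quality reads, aligned to Rnor_6.0 and deposited raw counts per gene, with no normalization. The authors made the deposited FPKM from the same alignments. The submitters' processing notes name fastp, HISAT2 and DESeq2 1.16.1, and a mouse build (mm9) that goes against the rat gene IDs. Neither the counting program nor the use of strand is given in the sources used here.

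Counts were tested with edgeR 4.0.16 in R 4.3.3 (filterByExpr on 18 libraries, TMM, quasi-likelihood F test, two-sided, 12 libraries per comparison, Benjamini-Hochberg adjustment). A call is an adjusted p under 0.05, and SE is the log2 fold change divided by the root of F. CPM used TMM-scaled totals. No 2 replicates were identical or within sampling noise. Each library is from a separate rat, so p-values measure the spread between rats. Depth was 27270026 to 38271014 counts, which sets the counting precision.

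The members, the lists of other genes and of markers, and the tests were chosen with earlier results of these data known. Cdo1, Cth, Cbs, Got1 and Il4i1 are also in the study's own pathway list. Of the other genes, those named are the called genes with the 5 largest fold changes per direction and comparison, apart from 1 that is counted but not reported here. Slc7a11 was chosen after its value was seen, as were genes named in the settings below. The other genes not matched by symbol were Ado, Gadl1 and Ggt5, and Mat1a, Bhmt2 and Gnmt were too low to test. Alternatives were DESeq2 1.42.0, its size factors, low-count filters, all 18 libraries in 1 fit, a replicate block, limma 3.58.1 on log2(FPKM + 1) and log2(FPKM + 0.1) with a minimum mean FPKM of 0.5 or unfiltered, and leaving out libraries. Leaving out SAH 1d-4 with SAH 1d-6 was chosen after seeing the data. On simulated data for SAH 1d versus sham (18444 genes), edgeR found 63% of 2-fold and 86% of 4-fold changes and made 6 false calls. The simulation changed 100 genes at each fold and drew the counts independently. In the data many more genes were called and single libraries stood apart, so these rates need not carry over. Promoters are RefSeq sequences on GRCr8, read with Python 3.11.15.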

Additional observations from a re-analysis of the deposited data

Results flagged for a closer look

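In 5 of 24 groups of 6 libraries (8 genes in 3 groups), 1 library lay far from the others by Dixon's criterion. Its critical value for 6 libraries, 0.625, is set so that chance flags about 1 in 20. The genes were chosen on these levels and share libraries, so the groups are not independent and the count is a description only. Cdo1 was low in SAH 7d-5 at 41.57 CPM, Slc6a6 was high in SAH 7d-5 at 64.62 CPM, and Ahcy was high in SAH 7d-5 at 70.09 CPM. Mat2a was high in SAH 1d-3 at 492.6 CPM. Got1 was low in sham-1 at 235.7 CPM, close to the cutoff, with a gap of 0.629 of the range.

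The effects at 1 and 7 days against the same sham group differed for 2 of the other genes by the direct test of SAH 7d versus SAH 1d. The log2 fold change was -1.56 for Chac1 and -0.52 for Slc7a5.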

How the results depend on the processing

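In SAH 1d versus sham, 6 of the 8 genes and 11 of the 48 other genes were called. With all 18 libraries in 1 fit the counts were 3 and 6, with 2462 of all genes. They ranged from 3 to 6 and from 7 to 13 when 1 library was left out, with 3 of the 8 without sham-2, sham-3 or SAH 1d-1, and 7 of the 48 without sham-4. The calls over all genes then ranged from 3517 without sham-6 to 5252 without SAH 1d-3. On the FPKM scale the split of the other genes was 10 higher and 1 lower, against 8 and 3.

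In SAH 7d versus SAH 1d, 1 and 2 were called in the main fit, 2 and 6 with DESeq2, 2 and 4 with all 18 libraries, 4 and 11 without SAH 7d-5 and SAH 1d-3, and 0 and 1 without SAH 1d-4 and 1d-6. Of all genes, 252, 1012, 779, 2512 and 70 were called in the same order. With no filter on low counts, 1 of the other genes was called, with 195 of all genes. Leaving out 1 library gave 0 to 4 and 1 to 7, the highest without SAH 7d-5, where 1545 of all genes were called. In SAH 7d versus sham all settings gave 0 and 0. The causes of these moves were not tested.

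The replicate numbers shared by the groups did not pair the rats. Deviations of same-numbered libraries correlated at -0.0467 to 0.0656 in SAH 1d versus sham, -0.219 to 0.0842 in SAH 7d versus sham and -0.252 to 0.197 in SAH 7d versus SAH 1d, and best with the same number in 0, 1 and 1 of 6 pairs. With the replicate number as a block, 4 and 10 were called in SAH 1d versus sham, 0 and 1 in SAH 7d versus SAH 1d, and 0 and 0 in SAH 7d versus sham. Of all genes, 3979, 29 and 0 were called in the same order.

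No fold change that was called in the main fit changed direction in any setting run. Slc6a6 in SAH 7d versus SAH 1d, called only with SAH 7d-5 left out, ranged from -0.68 to 0.10 on the log2 scale with 1 library left out. On simulated data for the 3 comparisons, edgeR recovered 45% to 63% of 2-fold changes with 6 libraries a group, so a smaller change could go uncalled. The simulated data held fewer changed genes and no libraries that stood apart, so these rates are a rough guide only.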
